A study of Mus musculus with 2 samples.

Results

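The mitochondrial solute carriers of the Slc25 family were followed in skeletal muscle of mice that overexpress the nuclear receptor RXRγ. They were taken as the genes whose symbol starts with Slc25a in the platform annotation, measured by probe sets that name no other gene. Each probe set combines several short oligonucleotides of the same transcript into 1 signal. By this rule 44 of the 18194 genes on the array were members, on 93 of the 34958 probe sets with a single gene symbol.

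The control mice were non-transgenic C57BL6 females, and the RXRγ mice were C57BL6 females carrying RXRγ under the human α-actin promoter, which drives expression in skeletal muscle. All animals were 4 months old, and the RXRγ mice came from 1 transgenic line. Muscle RNA of several animals was combined for each genotype, and each pool was read on a single Affymetrix MG430 array. There are therefore no replicates, and a difference between the arrays has no measured error and no p-value. The pool held 5 animals according to the design text and 3 according to the extraction protocol. Rxrg itself had a signal of 334.5 on the control array against 9172.1 on the RXRγ array (log2 ratio 4.78), which goes with the labels.

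Members of this family sit in the inner membrane of the mitochondrion, apart from a few that moved to other membranes, and each lets a particular small molecule cross: nucleotides, phosphate, di- and tricarboxylates, amino acids, acylcarnitines, cofactors or iron. Muscle depends on them in particular for the exchange of ADP for ATP, the entry of phosphate, the entry of fatty acids bound to carnitine, and the shuttling of reducing equivalents. RXRγ pairs with other nuclear receptors on DNA, typically at repeats of the hexamer AGGTCA.

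The promoters of 3 carriers are printed because the results turn on them: Slc25a4 and Slc25a5 encode ADP/ATP carriers with unequal differences between the arrays, and Slc25a39 was the 1 of 11 measured carriers with a promoter in RefSeq where the hexamer was found. Each runs from 250 bases before to the last base before the transcription start in RefSeq GRCm38.p6, in the direction of transcription. Capitals mark CCAAT in Slc25a4 (chr8:46211063-46211312, minus strand), the GC box GGGCGG read on the opposite strand in Slc25a5 (chrX:36795347-36795596, plus strand), and the hexamer on the opposite strand with 5 GC boxes in Slc25a39 (chr11:102407518-102407767, minus strand).
Slc25a4: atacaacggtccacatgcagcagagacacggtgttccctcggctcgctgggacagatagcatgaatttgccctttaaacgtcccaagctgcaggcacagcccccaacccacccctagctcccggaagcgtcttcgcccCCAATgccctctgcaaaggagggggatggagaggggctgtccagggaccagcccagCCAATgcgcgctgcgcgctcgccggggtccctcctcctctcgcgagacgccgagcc
Slc25a5: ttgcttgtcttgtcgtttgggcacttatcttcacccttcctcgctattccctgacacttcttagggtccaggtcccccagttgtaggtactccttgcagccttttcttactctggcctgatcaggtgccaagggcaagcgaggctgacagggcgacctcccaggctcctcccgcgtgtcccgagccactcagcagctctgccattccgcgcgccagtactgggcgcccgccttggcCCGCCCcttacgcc
Slc25a39: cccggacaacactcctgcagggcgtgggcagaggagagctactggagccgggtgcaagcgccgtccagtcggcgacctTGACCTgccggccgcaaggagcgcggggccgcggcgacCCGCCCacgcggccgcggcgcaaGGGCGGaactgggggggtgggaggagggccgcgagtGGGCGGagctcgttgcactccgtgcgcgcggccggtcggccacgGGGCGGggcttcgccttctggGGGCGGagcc

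Motifs were searched on both strands in windows from 250 bases before to 50 bases after the start, which RefSeq gave for 11 of the 14 measured carriers and for 27025 genes in all (32851 windows). A gene was counted when any of its windows held the motif. The carriers are those measured in this muscle, while the shares cover all genes with a window, measured or not. They are therefore not a matched background. The GC box GGGCGG was found in 10 of the 11 carriers and in 38.2% of all genes. CCAAT was in 5 of 11 and 41.1%, the E-box CACGTG in 2 of 11 (Slc25a33 and Slc25a36) and 8.09%, and TATAAA in 0 of 11 and 15.7%. The hexamer AGGTCA was in 1 of 11 (Slc25a39, 172 bases before the start) and 18.1%. A direct repeat with a spacer of 1 base (DR1), AGGTCANAGGTCA with up to 2 mismatches, was in 1 of 11, as AGGTGAAAGGTCG beginning 6 bases after the start of Slc25a20, and in 4.40%. The repeat with a spacer of 4 bases, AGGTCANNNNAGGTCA with up to 2 mismatches, was in 0 of 11 and 3.47%, and the estrogen-related receptor site TCAAGGTCA, which contains the hexamer, was in 0 of 11 and 0.466%. The repeats also contain the hexamer or copies of it with a mismatch. A match describes the letters and is not a bound site.

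A gene was taken as measured when a probe set exceeded a signal of 250 on the brighter array, and 14 of the 44 carriers, on 29 probe sets, were (31.8%, against 20.8% of all genes). A gene's log2 ratio of RXRγ over control mice is the mean of its probe sets above 250, and it was called higher or lower at 0.4. Of the 14 measured carriers, 4 were higher in RXRγ mice (Slc25a5, Slc25a33, Slc25a37 and Slc25a39) and 3 were lower (Slc25a16, Slc25a20 and Slc25a36). This is 28.6% higher and 21.4% lower, while 16.8% of the 3780 measured genes were higher and 20.1% lower, and 1 carrier makes up 7.14% of the measured carriers. The other 7 carriers lay within 0.4 on the log2 scale. The median log2 ratio of the 14 was -0.11, against -0.04 over all measured genes, and their ratios ran from -1.0 to 1.73. The called carriers nearest to the threshold and the uncalled ones were apart from it, with Slc25a20 at -0.53 and Slc25a4 at -0.26.

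**Figure D1:**
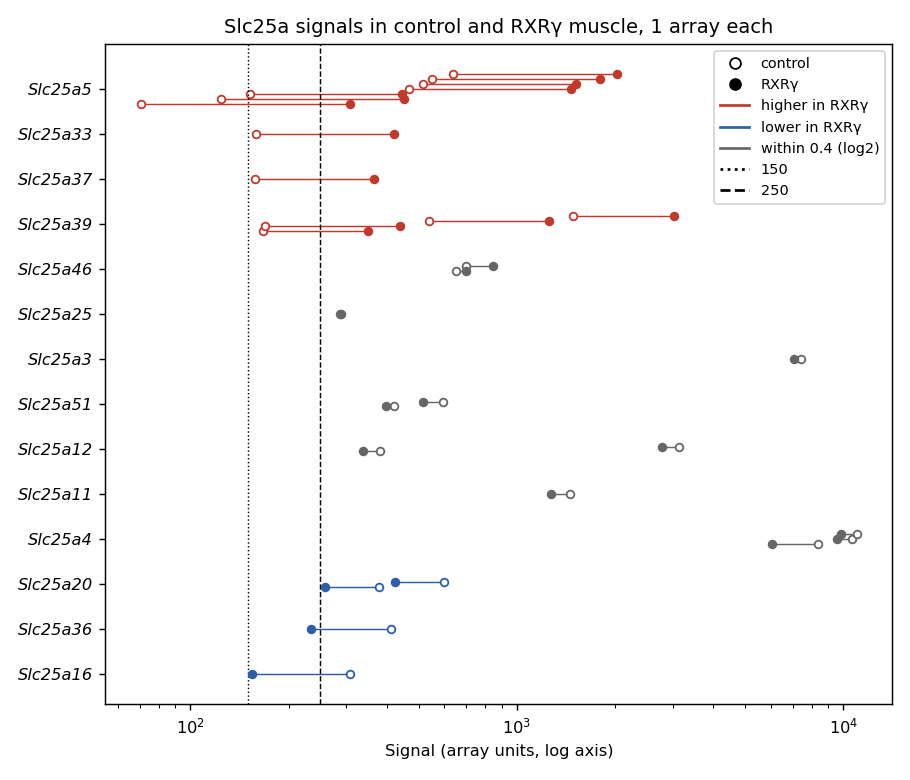
Signals of the 14 measured Slc25a genes on a log axis in array units, with 1 line per probe set above 250 from the control array (open point) to the RXRγ array (filled point); dotted and dashed lines mark 150 and 250. All probe sets of Slc25a5 and Slc25a39 lie further right on the RXRγ array, Slc25a4 and Slc25a3 lie slightly further left, and the points of Slc25a25 cover each other (286.8 and 288.7). Signals of different probe sets are not on a common scale of abundance.

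The ADP/ATP carriers moved unequally. Slc25a5 encodes ANT2, the isoform known from proliferating and many non-muscle tissues, while Slc25a4 encodes ANT1, the isoform of heart and skeletal muscle. Slc25a5 had a mean signal of 359.4 on the control array and of 1144.9 on the RXRγ array, a log2 ratio of 1.73 (3.32-fold higher). Of its 8 probe sets 7 exceeded 250, and their log2 ratios ran from 1.55 to 2.13.

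The 4 probe sets of Slc25a5 above 250 on both arrays went from 636.7 to 2029.2, from 548.3 to 1794.6, from 517.1 to 1516.5 and from 466.4 to 1468.5. The other 3 went from 152.1 to 443.9, from 124.2 to 452.7 and from 70.7 to 309.2, and the eighth, which did not reach 250, from 82.2 to 229.3. All of them were brighter on the RXRγ array. For the 3 that exceeded 250 on that array only, passing the filter already required this. Over the 4 above 250 on both arrays the log2 ratio of the gene was 1.65. The span of the 7 log2 ratios was 0.58, against a median span of 0.20 over all genes with more than 1 probe set above 250. Of the 7, 2 were under 150 in control mice, where a signal is too low for a fold, and with signals under 150 set to 150 the log2 ratio of the gene was 1.54. With this floor for all genes, Slc25a5 stood at rank 48 from the highest of the 3780 measured genes. Of the 7 probe sets 6 carry the suffix _x_at, which marks probes that can match other transcripts, and Slc25a5 has a processed copy in the genome, so the assignment to the gene is uncertain for these. The probe set without the suffix had a log2 ratio of 1.55.

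The probe sets of Slc25a4 went from 10996.2 to 9812.5, from 10616.8 to 9600.0 and from 8388.8 to 6068.5, and a dim one from 164.9 to 135.0. All of them were slightly lower in RXRγ mice, and the log2 ratio of the gene was -0.26, within the threshold, with 1 of the 3 bright probe sets past it at -0.47. The difference between the log2 ratios of Slc25a5 and Slc25a4 was 1.99. At such signals ratios spread less: among 206 probe sets with a mean signal above 5000 the central 90% of log2 ratios lay between -0.49 and 0.25 (median -0.09), against -0.83 and 0.85 for the 4512 dimmer ones down to a mean signal of 300. Slc25a3, which encodes the phosphate carrier that supplies ATP synthase, had a signal of 7432.0 in control and 7051.2 in RXRγ mice (log2 ratio -0.08). The testis isoform Slc25a31 was at 0.5 and 0.4.

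**Figure D2:**
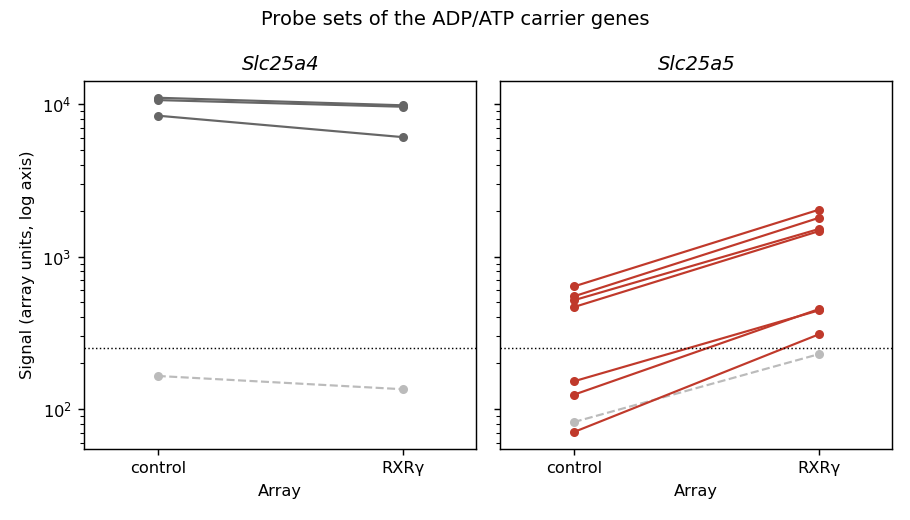
Signal of each probe set of Slc25a4 (left) and Slc25a5 (right) on the control and RXRγ arrays, on a log axis in array units; dashed grey lines are probe sets that did not reach 250, which the dotted line marks. All 8 lines of Slc25a5 go up, and the 4 lines of Slc25a4 slope slightly down.

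Of 4 carriers of iron and glutathione 2 were measured, Slc25a39 and Slc25a37, and both were higher, where 16.8% of all measured genes were. Slc25a37 exceeded 250 on the RXRγ array only, so that counting it as measured already required a difference. Slc25a39 encodes a carrier needed for the import of glutathione into mitochondria. Its 4 probe sets above 250 went from 1483.8 to 3030.3, from 536.6 to 1254.5, from 169.4 to 437.5 and from 166.7 to 349.0. All were brighter in RXRγ mice, with log2 ratios from 1.03 to 1.37 (gene 1.17, 2.25-fold higher), and 3 of the 4 carry the suffix _x_at. Those at 169.4 and 166.7 in control mice exceeded 250 on the RXRγ array only, so that counting them already required a difference. Over the 2 probe sets above 250 on both arrays the log2 ratio of Slc25a39 was 1.13. The remaining probe set was near 0 on both arrays (3.1 and 8.4).

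Slc25a37 encodes mitoferrin-1, the iron importer of developing red cells and other tissues. Its probe set went from 157.6 to 365.8 (log2 ratio 1.21, 2.32-fold higher). Slc25a28, which encodes the related mitoferrin-2, did not reach 250, with 179.6 in control and 228.3 in RXRγ mice. The close relative of Slc25a39, Slc25a40, was at 47.3 and 41.8. None of the 4 markers of erythroid cells with probe sets of their own exceeded 42.7 on either array (Hba-a1 1.7 and 0.9, Alas2 42.7 and 27.3, Slc4a1 36.3 and 9.6, Epb42 2.4 and 6.7); their summed signal was 83.1 in control and 44.5 in RXRγ mice.

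The carriers of nucleotides and cofactors differed in both directions, and their median log2 ratio was -0.48 over 4 measured genes. Slc25a33 encodes a carrier of pyrimidine nucleotides, and its probe set went from 159.4 to 419.6 (log2 ratio 1.40, 2.63-fold higher). Slc25a36, which encodes another pyrimidine nucleotide carrier, went the opposite way, from 411.2 to 234.1 (-0.81, 1.76-fold lower). Its dimmer probe sets also had lower signals in RXRγ mice, at 179.9 and 109.8, and at 111.0 and 75.2.

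Slc25a16, a gene linked to coenzyme A transport, went from 309.2 to 154.5 (-1.0, 2.0-fold lower). Slc25a51 encodes the carrier of NAD+ into mitochondria. Its probe sets went from 594.8 to 514.5 and from 421.2 to 398.4 (-0.14), a difference within the threshold. Slc25a16, Slc25a33, Slc25a36 and Slc25a37 exceeded 250 on 1 array only, so that passing the filter already required a difference, and each rests on 1 probe set. Among the 10 carriers above 250 on both arrays 2 were higher and 1 was lower, where 12.1% of all such genes were higher and 16.4% lower.

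Slc25a20 encodes the carnitine-acylcarnitine carrier, which brings long-chain fatty acids into the matrix. Its probe sets went from 599.7 to 423.0 and from 377.2 to 258.1, and the log2 ratio was -0.53 (1.44-fold lower). Of the enzymes of the carnitine shuttle 2 were measured, and both were lower (median -0.72), where 20.1% of all genes were. The signal of Crat, carnitine acetyltransferase, was 930.8 in control and 451.9 in RXRγ mice (log2 ratio -1.04), and that of Cpt2, the inner membrane palmitoyltransferase, was 477.1 and 360.6 (-0.40). Cpt2 lay at the threshold and was no longer called under quantile normalization (-0.39), loess centring or a pseudocount of 32 (both -0.37). Cpt1a, Cpt1c and Slc22a5 did not reach 250, and Cpt1b and Acsl1 had no probe set of their own.

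The carriers of the malate-aspartate shuttle lay within the threshold. Slc25a11, the exchanger of oxoglutarate for malate, had a signal of 1450.5 in control and 1273.5 in RXRγ mice (log2 ratio -0.19). Slc25a12, the calcium-activated aspartate-glutamate exchanger aralar, went from 3150.4 to 2789.3 and from 381.9 to 338.9, with log2 ratios of -0.18 and -0.17 on its probe sets (gene -0.17). Its relative Slc25a13 was at 14.5 and 28.1.

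Of the 6 enzymes of this shuttle and of the glycerophosphate shuttle, 1 was higher and 1 lower (median -0.20). Over all measured genes 16.8% were higher and 20.1% lower. Got2, the mitochondrial aspartate aminotransferase, had a signal of 1887.0 in control and 3123.7 in RXRγ mice (0.74). Gpd2, the mitochondrial glycerol-3-phosphate dehydrogenase, had 1589.7 and 666.0 (-1.27). Got1 was at -0.39 and Mdh2 at -0.37, close to the threshold and past it under median scaling (-0.49 and -0.47), and Mdh1 was at -0.03 and Gpd1 at 0.04.

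The remaining measured carriers did not reach the threshold. Slc25a46 encodes an outer membrane protein that takes part in mitochondrial dynamics, and its probe sets went from 699.8 to 842.9 and from 652.5 to 697.9 (log2 ratio 0.18). Slc25a25 encodes an exchanger of ATP-Mg for phosphate, and its signal was 286.8 in control and 288.7 in RXRγ mice (0.01).

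**Figure D3:**
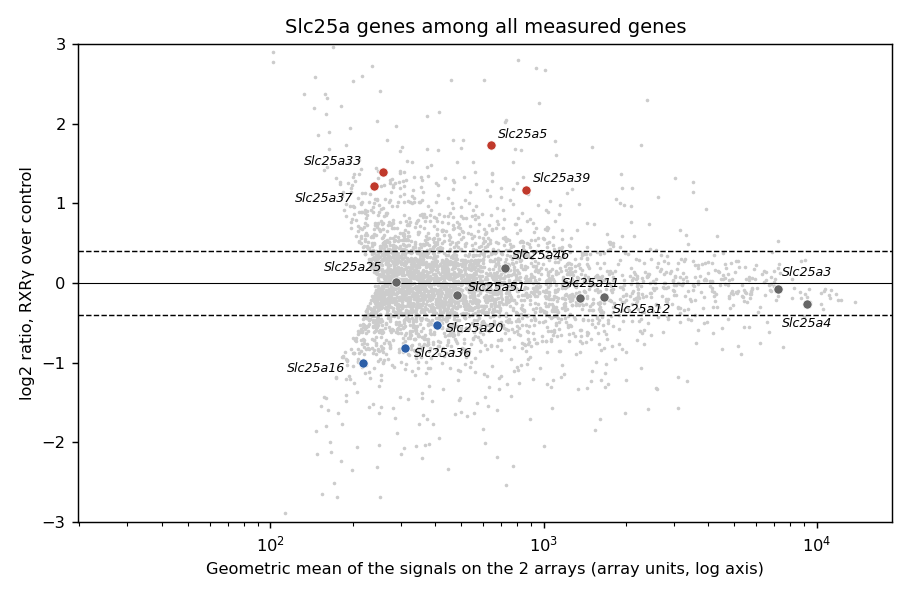
Log2 ratio of RXRγ over control mice against the geometric mean of the signals of the 2 arrays (array units, log axis) for the 3780 measured genes (grey) and the 14 measured Slc25a genes (red higher, blue lower, dark grey within 0.4, dashed lines); 26 genes lie beyond the axis limits of -3 and 3. Slc25a5, Slc25a33, Slc25a37 and Slc25a39 lie above 1 and Slc25a4 and Slc25a3 at the right edge lie near 0.

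The 30 other carriers, on 54 probe sets, did not reach 250. Of these, 4 had a probe set above 150. Besides Slc25a28, they were Slc25a1, the citrate carrier (111.0 in control and 164.8 in RXRγ mice), Slc25a15, the ornithine carrier (198.3 and 187.0), and Slc25a24, an ATP-Mg/phosphate exchanger (107.6 and 172.5). The remaining 26 were at 149.0 or less on both arrays, and no ratio is given for them. They include all 3 uncoupling protein-like carriers without a Ucp symbol (Slc25a14, Slc25a27 and Slc25a30), which do not exceed 88.2, and the isoforms best known from other tissues such as Slc25a47 (60.0 and 70.2), known from liver.

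The other proteins of the carrier fold go by other symbols. Ucp3, the uncoupling protein of skeletal muscle, had a signal of 451.5 in control and 88.5 in RXRγ mice on 2 probe sets. The signal in RXRγ mice is under 150, and with a floor of 150 the log2 ratio was -1.59. Mtch2, an outer membrane insertase, was at 0.17, and Mtch1 (164.1 and 249.8) and Ucp1 (14.0 and 8.4) did not reach 250. Ucp2 had no probe set of its own.

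Of 15 measured genes of outer membrane channels and of protein import into mitochondria, 1 was higher and 2 were lower (median 0.00 on the log2 scale). Over all measured genes 16.8% were higher and 20.1% lower. Tomm22, an import receptor, was at 0.96, and Timm23 and Timm17a, subunits of the translocase for proteins with a presequence, were at -0.61 and -0.52. On the route that carriers themselves take, Tomm70a, Timm10 and Timm22 were within the threshold, at signals of 437.2 and 432.1, 543.7 and 667.6, and 312.9 and 313.9. The channel genes Vdac1, Vdac2 and Vdac3 were at -0.16, 0.03 and -0.30.

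Among 5 measured inner membrane transporters of other families, 1 was higher (median 0.06), where 16.8% of all genes were. That gene, Sfxn3, exceeded 250 on the RXRγ array only. Where both arrays had to exceed 250, 0 of 3 were higher. Sfxn3, a sideroflexin that carries serine, had a signal of 117.4 in control and 277.3 in RXRγ mice (0.89 with a floor of 150), and Mpc1, a subunit of the pyruvate carrier, was at 0.05. Of 8 measured genes that make, interconvert or store high-energy phosphate (ATP synthase subunits, adenylate kinases and creatine kinases), 2 were lower (median -0.02). Over all measured genes 20.1% were lower. Ak3, an adenylate kinase of the matrix, was at -0.46, and Ckm, the cytosolic muscle creatine kinase, at -0.75 with probe sets at -1.39 and -0.11, so that it was not called by its brightest probe set. Ak3 was not called by its brightest probe set either (-0.40). The mitochondrial creatine kinase Ckmt2 was at 0.29, and the ATP synthase subunits Atp5a1, Atp5b, Atp5c1 and Atp5o lay between -0.09 and 0.22.

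Of 7 measured iron and heme enzymes 1 was higher and 1 was lower (median -0.12), where 16.8% of all genes were higher and 20.1% lower. Glrx5, a mitochondrial glutaredoxin of iron-sulfur cluster assembly, had a signal of 1190.8 in control and 3083.5 in RXRγ mice (log2 ratio 1.37), and Uros, uroporphyrinogen III synthase, was at -0.54. Uros exceeded 250 on the control array only. Where both arrays had to exceed 250, 1 of 6 was higher and 0 were lower, against 12.1% and 16.4% of all such genes. Fech, the ferrochelatase that inserts iron into heme, was at -0.12.

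Of 5 measured regulators of mitochondrial biogenesis 4 were higher and none was lower (median 0.44), where 16.8% of all genes were higher. Under median scaling 1 of the 4 calls was left (Tfam), and with a pseudocount of 32 there were 2. Ppargc1a was also not called where both arrays had to exceed 250, or by its brightest probe set (both 0.36). Without a filter 3 of 10 were higher and 2 were lower (Nrf1 and Ppara). Tfam, the transcription factor of mitochondrial DNA, went from 476.7 to 864.8 (0.86). Ppargc1a, Esrra and Gabpa, a coactivator and transcription factors of nuclear genes for mitochondrial proteins, were at 0.44, 0.46 and 0.44, just past the threshold. Ppargc1b was at 0.06.

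**Figure D4:**
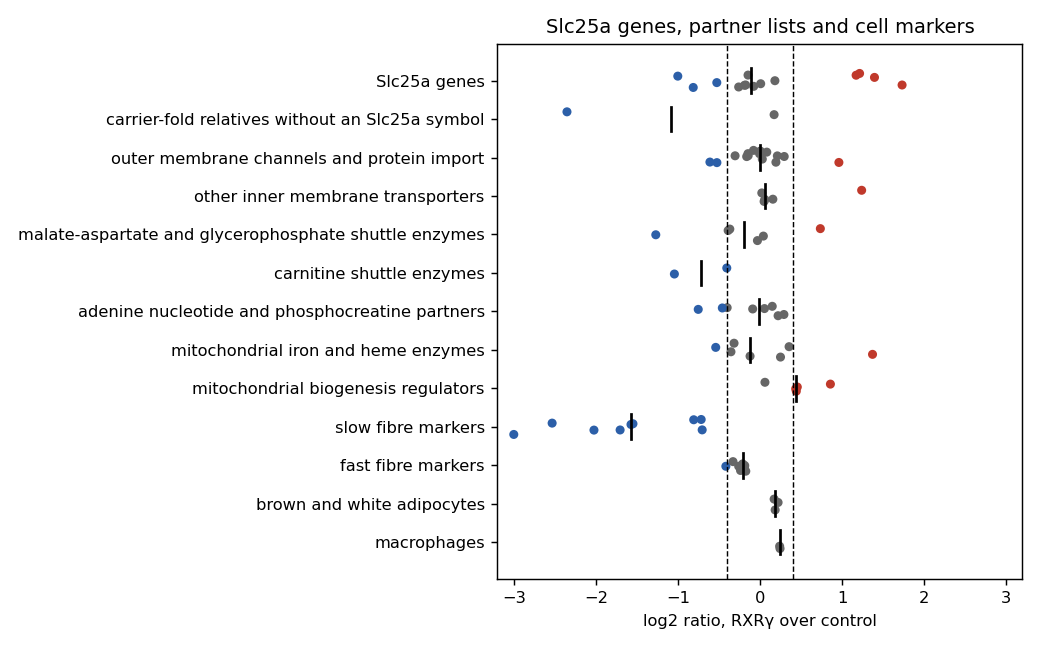
Log2 ratio of RXRγ over control mice of the measured genes of each list (1 point per gene, spread vertically for legibility) with the median as a black bar and dashed lines at -0.4 and 0.4. The Slc25a genes (median -0.11) spread to both sides, all genes of the slow fibre list, which includes Myh2, lie on the left, and the point of Myl3 at -6.47 is drawn at -3. The signal of Myl3 in RXRγ mice (23.2) is too low for a fold, and with a floor of 150 its log2 ratio was -3.35.

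Markers of the fibre types and of other cells are given beside these values. All 9 genes of the slow fibre list were lower in RXRγ mice (median log2 ratio -1.57), where 20.1% of all measured genes were. Their summed signal was 22067.9 in control and 8942.9 in RXRγ mice. Tnnt1, Tnni1 and Myl3 exceeded 250 on the control array only, so that passing the filter already required a difference. Where both arrays had to exceed 250, 6 of 6 were lower (median -1.18), against 16.4% of all such genes. The list includes Myh2, the myosin of fast type IIa fibres (9977.6 and 5703.3), and without it 8 of 8 were lower (median -1.64), with sums of 12090.3 and 3239.6. Of 9 fast fibre markers 1 was lower (Myh4, -0.42, not called under quantile normalization or loess centring), against the same 20.1%. Their median was -0.21, with sums of 108994 and 95299.3. Since the RNA came from whole muscle, fewer cells of a type and less RNA per cell cannot be told apart. Slc25a20, Crat, Gpd2 and Ucp3 were also lower, but they are named here after their values were seen. Other mitochondrial genes, also named after their values were seen, differed among themselves. Got2 was higher (0.74), Ckmt2 (0.29) and Slc25a3 (-0.08) were within the threshold, and Timm23 (-0.61), Timm17a (-0.52) and Slc25a16 (-1.0) were lower. The part of fibre type in these values was not tested.

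Of the adipocyte markers 3 were measured and none was called (median 0.19), with sums of 5940.5 in control and 6495.5 in RXRγ mice, and the brown fat gene Ucp1 was near 0. Of the macrophage markers 2 were measured and none was called (median 0.24, sums 1105.0 and 1331.8). None of the endothelial markers reached 250 (sums 799.6 and 640.6).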

How the data were processed

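Labelled cRNA of 1 pool of muscle RNA per genotype was hybridized to Affymetrix MG430 arrays. The authors made the deposited intensity values with Affymetrix Gene Chip software, by contrasting oligonucleotides that match a transcript with mismatched ones. They are linear, with a mean of 100.0 on both arrays after 2% of probe sets were trimmed at each end. The sources used here do not give the scaling method. On the control array 8091 and on the RXRγ array 8128 of 45101 probe sets exceeded 150. The authors' detection calls were not used here. With 1 array per genotype, the number of arrays limits the precision.

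Probe sets were named through the platform annotation, where 34958 have 1 gene symbol, 932 several and 9211 none listed; 1 that names Slc25a37 with another gene was left out. Log2 ratios were taken without a pseudocount. The text names every carrier with a probe set above 150 and, of other lists, up to 4 genes past 0.4; others named beside them were chosen after their values were seen. The members and lists were chosen with earlier results of these data known. Steps were tested on simulated data. Alternatives were another scaling (to the same median; with limma 3.58.1 in R 4.3.3, quantile normalization or loess centring), a floor of 150, a pseudocount of 32, other filters and probe set rules, and a threshold of 1. Python 3.11.15, pandas 2.3.3, numpy 2.4.6 and matplotlib 3.10.9 were used. Promoters came from RefSeq (GRCm38.p6).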

Additional observations from a re-analysis of the deposited data

How the results depend on the processing

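The same 4 carriers were higher and the same 3 lower under median scaling, quantile normalization, loess centring, a pseudocount of 32, a floor of 150, the brightest probe set, leaving out _x_at and _s_at probe sets, and the median of the probe sets. Where the brighter array had to exceed 500 (9 carriers), or both arrays 250 (10 carriers), 2 were higher (Slc25a5 and Slc25a39) and 1 was lower (Slc25a20). Of all genes, 16.4% were higher and 21.2% lower above 500, and 12.1% and 16.4% above 250 on both arrays. Where the brighter array had to exceed 150, 6 of 18 were higher, with Slc25a1 and Slc25a24 added, and 3 were lower, against 18.3% and 19.2% of all genes. Without a filter 15 of 44 were higher and 11 lower, against 28.6% and 22.6% of all genes, and these include signals near 0. Another 3 had probe sets past the threshold in both directions. At a threshold of 1, 4 were higher and 1 (Slc25a16) was lower, against 5.05% and 4.10% of all genes. The median log2 ratio of the carriers ran from -0.21 (median scaling) to 0.07 (no filter). Of 159 values of single carriers under the alternatives 158 moved by less than a factor of 1.5. The exception was Slc25a25 without a filter (-0.82). Slc25a51 was also called lower without a filter (-0.63). Many of the 159 values could not move. For the 7 carriers with 1 probe set above 250, the brightest probe set, the median and leaving out _x_at and _s_at return the same value. Their calls were therefore fixed under these settings. The floor of 150 changed only Slc25a5, since the other carriers had no signal under it. Median scaling moved the split of all 3780 measured genes from 636 higher and 760 lower to 504 and 984, without moving a call of a carrier. No paired analysis was possible because each genotype has 1 array. The signal on 1 array of Slc25a16, Slc25a33, Slc25a36 and Slc25a37 was between 150 and 250. For the other gene lists, the alternatives were applied after seeing the data. Median scaling left 1, a pseudocount of 32 left 2 and a signal above 250 on both arrays left 3 of 4 biogenesis regulators higher.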
